A study of Oryza sativa with 12 samples.

Results

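The photosynthesis and Calvin cycle genes of the rice (Oryza sativa) peduncle were followed in the cultivars Swarna and Pokkali. The 45 loci are a list of nuclear genes of light harvesting, the photosystems, electron transport, Rubisco and the Calvin cycle, each taken as the row of the deposited table that carries its locus identifier. Of these, 42 had a row naming that locus alone, out of 53380 loci with such a row in the whole table, and 41 reached 1 FPKM (fragments mapped to a transcript, per kilobase of its length and relative to library depth) in at least 1 group, out of 19126 such loci. The remaining 3 loci were named only in rows shared with a neighbouring locus and are described separately. The identifiers carry no gene descriptions in the table, so the loci are called by their identifiers, and their placement in 6 role groups was made by hand from background knowledge and was not checked against an annotation.

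The material was the peduncle, the uppermost internode of the stem, which carries the panicle. Field-grown plants were sampled as elongating peduncles before heading (EP) and as non-elongating peduncles after heading (NP), in Swarna and in Pokkali. Each of these 4 groups had 3 libraries, 12 in all. No genetic change or treatment is named for any group, and the paper's methods call the libraries of a group biological replicates without saying whether each was a separate plant or a pool. The table gives 1 FPKM value per locus and group, in which the libraries are combined. No error, interval or test can therefore be given for any value below, no difference has a replicate check, and the table holds no counts, so the counts behind a single value cannot be given. Read depths of the libraries were not used here. A ratio of at least 2-fold on log2 of FPKM plus 0.5 was counted as a difference, which is a rule of size only. Series of 4 values are given as Swarna before and after heading, then Pokkali before and after heading.

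In the thylakoid membranes of the chloroplast, light-harvesting proteins bind chlorophyll and pass energy to photosystem II and photosystem I, and the electron transport chain between them feeds ATP synthase and the making of NADPH. The Calvin cycle spends both in the stroma, where Rubisco fixes carbon dioxide and the other enzymes reduce the product and restore the acceptor. Many subunits of these machines are encoded in the nucleus and imported, and stems and leaf sheaths of grasses are green as well as leaves.

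Every one of the 41 loci was listed at a higher level in Pokkali than in Swarna at both stages, against 31.6% of all loci compared, and 40 of 41 were when columns were divided by their sums or quantile normalized. LOC_Os01g41710 passed the minimum only through Pokkali EP, so its order was partly set by the filter. At a minimum of 10 FPKM, which leaves it out, 40 of 40 loci were higher in Pokkali at both stages. The distance was moderate before heading and large after it. The median of the 41 loci was 51.0 FPKM before and 13.6 after heading in Swarna, against 123 and 185 in Pokkali. The 42 loci with their own row summed to 1982 FPKM before and 1363 after heading in Swarna, against 5385 and 11558 in Pokkali. These were 0.600%, 0.224%, 1.29% and 2.30% of the sum over all loci with a row of their own. Left out of the sums is the row that LOC_Os01g41710 shares with LOC_Os01g41630. It had 2516, 2812, 3087 and 4112 FPKM, more than the sum of the 42 loci in both Swarna groups. How much of it belongs to the member was not tested. Ranked by FPKM among all loci compared in the same group, the median member stood at percentile 94.7 in Swarna before heading and 67.1 after it, and at percentiles 97.3 and 98.2 in Pokkali. In bulk tissue, fewer green cells and less RNA per green cell cannot be told apart.

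**Figure D1:**
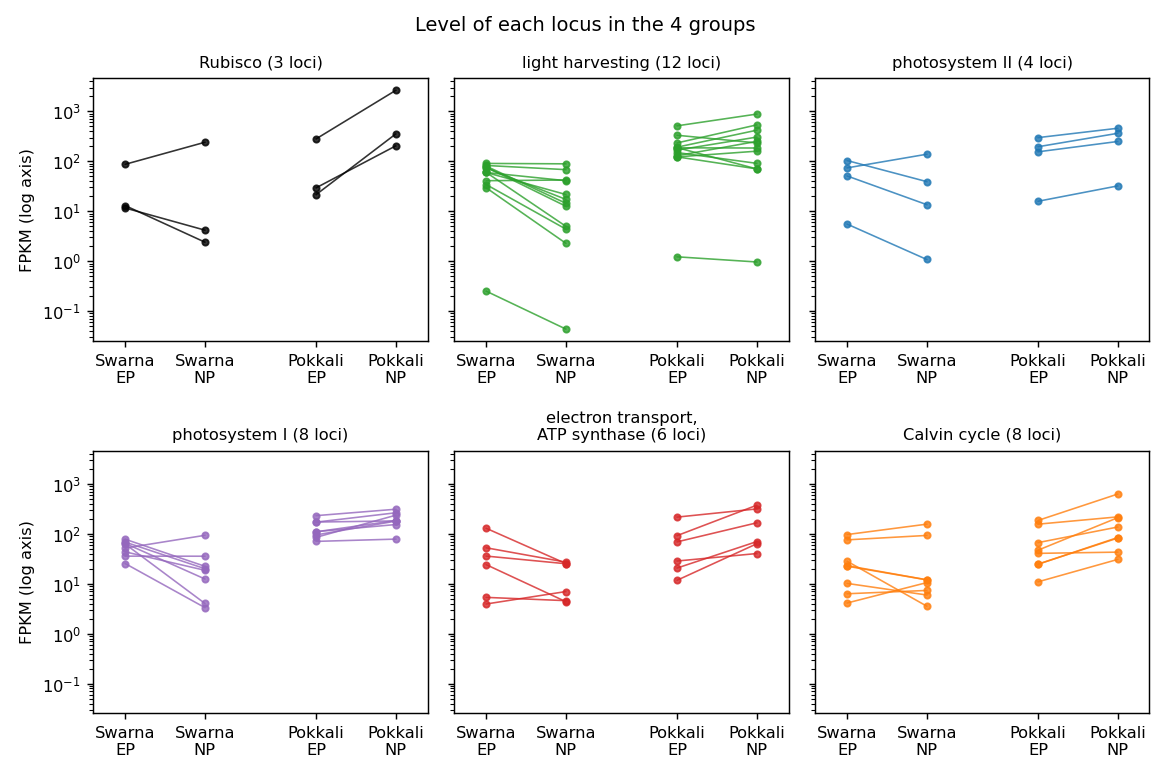
FPKM (log axis) of each of the 41 loci in Swarna EP, Swarna NP, Pokkali EP and Pokkali NP, with a panel for each role group and a line joining the stages of a locus within a cultivar. Each point is the authors' value for a group of 3 combined libraries, so there are no error bars. Most lines slope down in Swarna and up in Pokkali, and the Rubisco locus at the top reaches 2639 FPKM in Pokkali NP.

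Between EP and NP, 26 of the 41 loci were lower in NP in Swarna and higher in NP in Pokkali, 9 were higher in NP in both cultivars and 6 were lower in NP in both. In Swarna, 21 of the 41 loci were higher in EP by 2-fold or more, where 25.4% of all loci compared were, and 2 were higher in NP by 2-fold or more, where 26.6% were. The median log2 ratio of NP to EP in Swarna was −1.20, beside 0.03 over all loci. In Pokkali, 16 loci were higher in NP by 2-fold or more (15.9% of all loci) and 1 was higher in EP by 2-fold or more (14.8%). There the median log2 ratio was 0.86, beside 0.05 over all loci. The remaining 18 loci in Swarna and 24 in Pokkali stayed within 2-fold. By sign alone, 32 of 41 ratios were below 0 in Swarna and 35 of 41 were above 0 in Pokkali. These numbers were 38 and 32 with columns divided by their sums. Over all 19126 loci as deposited, 9396 ratios were below 0 in Swarna and 10026 were above 0 in Pokkali. The shares of all loci for the split of 26, 9 and 6 were not computed.

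The difference between the cultivars' log2 ratios, Swarna minus Pokkali, had a median of −2.01, beside 0.07 over all loci. At least 2-fold, it was on the Pokkali side for 34 loci (19.2% of all loci) and on the Swarna side for 0 (21.9%). The commonest order of the 4 groups, from low to high, was Swarna NP, Swarna EP, Pokkali EP, Pokkali NP, which 26 of the 41 loci followed. Among all loci compared, 9.98% had their lowest value in Swarna NP and their highest in Pokkali NP. Another 9 loci were lowest in Swarna EP and highest in Pokkali NP. The last 6 were highest in Pokkali EP, and these 6 were all in the light-harvesting group. Across the 41 loci, the log2 ratios of the 2 cultivars had a Pearson's r of 0.482 and a Spearman's rho of 0.558, and over all 19126 loci these were 0.670 and 0.607, a description across genes that share the same 4 combined samples.

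**Figure D2:**
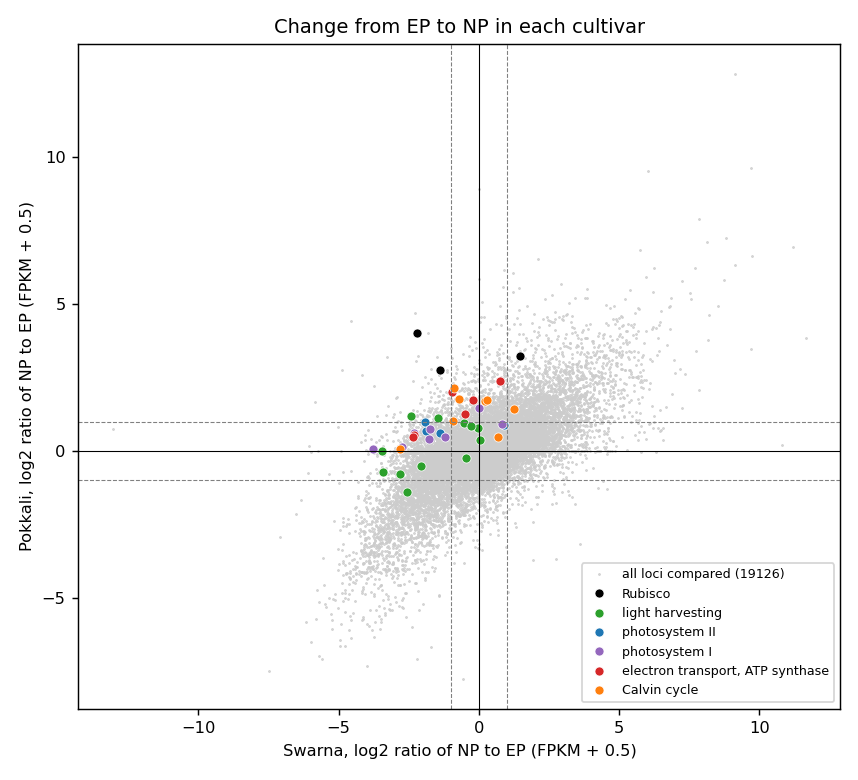
Log2 ratio of NP to EP in Swarna (horizontal axis) against Pokkali (vertical axis), on FPKM plus 0.5, for the 41 loci coloured by role group and for all 19126 loci compared in grey. Dashed lines mark 2-fold. The 4 loci in the upper left field, beyond both dashed lines, were higher in EP by 2-fold or more in Swarna and in NP by as much in Pokkali, and 2 of these are Rubisco loci.

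The scale of the columns matters for the Swarna values. The values of the loci with a row of their own summed to 330514 FPKM before and 609663 after heading in Swarna, against 419002 and 502800 in Pokkali. When each column was divided by its sum, the median of all loci moved by −0.77 in Swarna and −0.18 in Pokkali on the log2 scale, and the median of the members relative to all loci was −1.34 in Swarna and 0.74 in Pokkali, beside −1.24 and 0.82 in the values as deposited. The direction of both medians was the same under every scaling tried.

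The Rubisco group had the widest contrast of the 6 groups, with a median log2 ratio of NP to EP of −1.37 in Swarna and 3.22 in Pokkali. Rubisco carries out carbon fixation itself and is built from a plastid-encoded large subunit and a nuclear small subunit. The table has no row on a plastid chromosome, so only nuclear loci were followed. The most abundant of all members was LOC_Os12g19381 (chromosome 12, 11262485 to 11278448, coordinates of the Rice Genome Annotation Project genome version 7 used in the table). It was listed at 87.4 FPKM before and 241 after heading in Swarna, against 282 and 2639 in Pokkali. It was 2.76-fold higher in NP than in EP in Swarna and 9.34-fold higher in Pokkali. It was thus 1 of only 2 members that were higher in NP by 2-fold or more in both cultivars, as 10.8% of all loci were. In Swarna it was within 2-fold under some scalings, with a log2 ratio of 0.58 when columns were divided by their sums, 0.69 when the 10 most abundant loci were left out of the sums and 0.47 under quantile normalization, against 1.46 as deposited.

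The other Rubisco loci differed in opposite directions in the 2 cultivars. LOC_Os12g17600 (chromosome 12, 10080398 to 10081661) had 13.0 FPKM before and 2.42 after heading in Swarna, against 21.6 and 354 in Pokkali. LOC_Os12g19470 (chromosome 12, 11320267 to 11322547) had 11.6, 4.20, 29.6 and 204 FPKM in that order. Both were lowest in Swarna NP and highest in Pokkali NP, where they exceeded Swarna NP by 146-fold and 48.6-fold. They lie on the same chromosome as the abundant locus, and copies of a gene family that are near identical can share reads. How the authors' quantification divided such reads was not tested, so the split of the Rubisco total among these loci is uncertain. The total over the 3 loci was 112 FPKM before and 248 after heading in Swarna, against 334 and 3197 in Pokkali. In the total, Swarna NP was above Swarna EP, which is the opposite of the median over the 3 loci in Swarna (log2 ratio −1.37), since the abundant locus carries most of it. Divided by the sums of the columns, the same totals were 0.0339% of Swarna EP and 0.0406% of Swarna NP. The member total leaves out rows shared with a neighbour. As a share of it, the Rubisco loci made up 5.65% before and 18.2% after heading in Swarna, against 6.20% and 27.7% in Pokkali.

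The light-harvesting group comprises the antenna proteins that bind chlorophyll. Its 12 loci had a median log2 ratio of NP to EP of −1.74 in Swarna. There 7 were higher in EP by 2-fold or more (25.4% of all loci) and 0 were higher in NP by 2-fold or more (26.6%). In Pokkali the median was 0.18, with 6 ratios on each side of 0. There 2 were higher in NP by 2-fold or more (15.9% of all loci) and 1 was higher in EP by 2-fold or more (14.8%). Neither Pokkali count stood out from the background share. That small Pokkali median changed sign, to −0.08, when columns were divided by their sums. The group summed to 689 FPKM before and 319 after heading in Swarna, against 2345 and 3211 in Pokkali, and its share of the member total was 34.8%, 23.4%, 43.5% and 27.8%. Before heading the antenna loci were the largest group in both cultivars. After heading in Pokkali they and the 3 Rubisco loci were nearly equal in sum. These sums and shares leave out the row that LOC_Os01g41710 shares with LOC_Os01g41630. That row had 2516, 2812, 3087 and 4112 FPKM, more than the antenna sum in every group. How much of it belongs to the antenna locus was not tested.

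The most abundant antenna locus was LOC_Os09g17740, with 90.9 FPKM before and 89.3 after heading in Swarna, against 515 and 884 in Pokkali. It was level in Swarna, and at EP its 5.66-fold excess in Pokkali was the largest of the 41 loci. LOC_Os07g37550 was also level in Swarna, with 41.0 FPKM in EP and 42.4 in NP, and had 123 and 160 FPKM in Pokkali. LOC_Os02g10390 had 82.7, 68.3, 168 and 306 FPKM, and LOC_Os07g38960 had 59.9, 41.0, 130 and 251 FPKM. These 4 loci stayed within 2-fold between stages in both cultivars.

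Another set of antenna loci was low in Swarna NP while Pokkali NP was level with Pokkali EP or below it by less than 2-fold. LOC_Os07g37240 stood at 60.1 and 5.02 FPKM in the Swarna stages, where Pokkali showed 187 and 185. LOC_Os11g13890 stood at 29.6 and 2.30 FPKM in the Swarna stages, where Pokkali showed 150 and 91.3. LOC_Os04g38410 stood at 34.3 and 4.41 FPKM in the Swarna stages, where Pokkali showed 123 and 70.7. In these loci the Swarna EP level exceeded the Swarna NP level by 7.78-fold to 12.9-fold, while in Pokkali EP exceeded NP by 1.74-fold or less. LOC_Os03g39610 stood at 73.3 and 17.4 FPKM in the Swarna stages, where Pokkali showed 333 and 234, a pattern of the same shape. LOC_Os01g52240 (chromosome 1, 30030997 to 30041476) was the only member higher in EP by 2-fold or more in both cultivars, as 11% of all loci were, at 76.7 and 12.7 FPKM in the Swarna stages, where Pokkali showed 188 and 70.6. It was also the only member whose Pokkali NP value was below its Swarna EP value.

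A pair of antenna loci differed at least 2-fold in opposite directions in the cultivars, as the pair of Rubisco loci did. LOC_Os08g33820 had 80.2 FPKM before and 14.5 after heading in Swarna, against 234 and 537 in Pokkali. LOC_Os06g21590 had 59.9, 21.7, 192 and 420 FPKM in that order. With the Rubisco loci they make 4 of 41 members that were higher in EP by 2-fold or more in Swarna and in NP by as much in Pokkali, where 0.685% of all loci were. When columns were divided by their sums, 6 members met this rule and neither antenna locus was among them. Over all alternatives between 4 and 7 members met it, and LOC_Os12g17600 and LOC_Os12g19470 did so in each. The lowest antenna locus, LOC_Os01g41710, had 0.252 FPKM before and 0.0440 after heading in Swarna, against 1.23 and 0.967 in Pokkali in the row of its own, and it passed the minimum only through Pokkali EP.

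**Figure D3:**
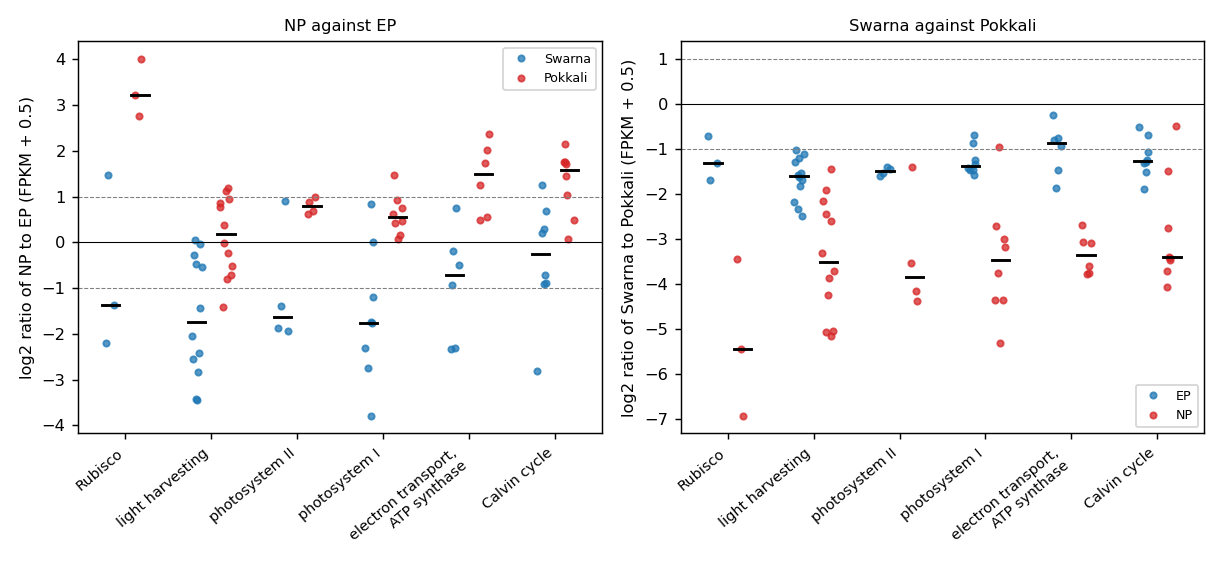
Log2 ratios of the 41 loci by role group, on FPKM plus 0.5, each point a locus and each black bar the median of its group. The left panel gives NP over EP in Swarna (blue) and Pokkali (red), and the right panel gives Swarna over Pokkali at EP (blue) and NP (red). The Pokkali medians run from 0.18 for light harvesting to 3.22 for Rubisco, and every point of the right panel lies below 0.

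The photosystem II group, which splits water and holds the first reaction centre, had 4 loci over the minimum and 1 under it. LOC_Os01g31690 was its most abundant locus, with 104 FPKM before and 39.3 after heading in Swarna, against 299 and 460 in Pokkali. LOC_Os07g04840 had 51.0, 13.6, 155 and 250 FPKM, and LOC_Os01g64960 had 5.54, 1.09, 15.9 and 32.2 FPKM. These 3 were higher in EP by 2-fold or more in Swarna and within 2-fold in Pokkali, where LOC_Os01g64960 was just short of the rule at a log2 ratio of 0.996. LOC_Os07g36080 was higher in NP in both cultivars by nearly the same factor, 1.87-fold in Swarna (74.1 and 139 FPKM) and 1.85-fold in Pokkali (196 and 364 FPKM). LOC_Os08g02530 was listed at 0.199 FPKM in Swarna EP and at 0 in the other groups, and is left out of the counts and medians over 41 loci.

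The photosystem I group, whose reaction centre passes electrons on to ferredoxin, had 8 loci with a row of their own. Its median log2 ratio of NP to EP was −1.76 in Swarna and 0.54 in Pokkali. LOC_Os07g05480 had the lowest Swarna ratio of all members, with 62.2 FPKM in EP and 4.05 in NP, a 15.4-fold excess of EP. In Pokkali the same locus was level, at 172 and 181 FPKM. LOC_Os12g08770 stood at 25.3 and 3.34 FPKM in the Swarna stages, where Pokkali showed 70.5 and 78.3. LOC_Os07g25430 stood at 64.2 and 12.5 FPKM in the Swarna stages, where Pokkali showed 171 and 264. Each of these was higher in EP by 2-fold or more in Swarna and within 2-fold in Pokkali.

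The most abundant photosystem I locus, LOC_Os04g33830, had 77.8 FPKM before and 22.4 after heading in Swarna, against 231 and 310 in Pokkali. LOC_Os08g44680 had 68.2, 20.1, 110 and 184 FPKM, and LOC_Os03g56670 had 43.5, 18.6, 111 and 153 FPKM. All 3 were lowest in Swarna NP and highest in Pokkali NP. LOC_Os12g23200 was level in Swarna (35.7 and 35.6 FPKM) and 2.77-fold higher in NP in Pokkali (85.1 and 236 FPKM), the only locus of the group past 2-fold there. LOC_Os05g48630 was higher in NP in both cultivars, by 1.80-fold in Swarna (51.8 and 93.2 FPKM) and 1.89-fold in Pokkali (95.0 and 180 FPKM).

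The electron transport and ATP synthase group had 6 loci with a row of their own. Its medians were −0.72 in Swarna and 1.50 in Pokkali. In Swarna 2 loci were higher in EP by 2-fold or more, near the background share (25.4% of all loci). In Pokkali 4 were higher in NP by 2-fold or more (15.9% of all loci). LOC_Os08g01380 was the most abundant, with 129 FPKM before and 25.4 after heading in Swarna, against 216 and 315 in Pokkali. LOC_Os06g01210 had 52.5, 27.1, 92.1 and 373 FPKM, and so passed the former in Pokkali NP though it was below it in Pokkali EP. LOC_Os02g01340 had 3.93, 6.98, 11.8 and 63.1 FPKM and was higher in NP in both cultivars, 1.77-fold in Swarna and 5.36-fold in Pokkali.

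In the rest of the group, LOC_Os07g37030 had 35.8 FPKM before and 25.2 after heading in Swarna, against 69.0 and 166 in Pokkali. LOC_Os06g01850 had 5.34, 4.59, 20.7 and 69.8 FPKM. Both were within 2-fold in Swarna and past 2-fold in Pokkali. LOC_Os02g51470 had 24.1, 4.39, 28.6 and 40.2 FPKM. Its EP levels were the nearest of all members between cultivars, at 1.18-fold, and it was higher in Swarna EP than in Pokkali EP when columns were divided by their sums, with or without the 10 most abundant loci, or quantile normalized.

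The Calvin cycle group, the enzymes that reduce the fixed carbon and restore the acceptor of Rubisco, had 8 loci. Its Swarna median was the nearest to 0 of the 6 groups, at −0.26, with 4 ratios on each side of 0. Its Pokkali median was 1.58, with 6 loci higher in NP by 2-fold or more (15.9% of all loci). In Pokkali 0 were higher in EP by 2-fold or more (14.8%). Divided by the sums of the columns, the Swarna median became −1.09. LOC_Os11g07020 was the most abundant, with 75.7 FPKM before and 92.8 after heading in Swarna, against 186 and 625 in Pokkali. LOC_Os03g03720 had the highest Pokkali ratio of the group, with 22.4, 12.0, 47.1 and 210 FPKM. LOC_Os04g16680 had 6.31, 7.35, 24.7 and 82.1 FPKM. Swarna stages differed by less than 2-fold in these 3 loci, and Pokkali NP exceeded EP by 3.32-fold to 4.46-fold.

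LOC_Os02g47020 had 10.2 FPKM before and 5.96 after heading in Swarna, against 24.6 and 84.2 in Pokkali. LOC_Os05g41640 had 23.1, 12.0, 66.7 and 137 FPKM. LOC_Os03g16050 (chromosome 3, 8841268 to 8843069) had 4.12, 10.5, 10.9 and 30.7 FPKM, and with the abundant Rubisco locus it is the member higher in NP by 2-fold or more in both cultivars. Its Swarna log2 ratio was 1.26 as deposited, 0.44 with columns divided by their sums and 0.54 with the 10 most abundant loci left out of the sums. LOC_Os06g04270 had 96.7, 156, 156 and 218 FPKM, with Swarna NP and Pokkali EP level, and its 1.40-fold excess in Pokkali NP was the smallest of all members at that stage. LOC_Os04g38600 was the only locus of the group higher in EP by 2-fold or more in Swarna, at 28.2 and 3.56 FPKM in the Swarna stages, and nearly level in Pokkali, at 40.6 and 43.0 FPKM.

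In Pokkali the medians were highest for Rubisco (3.22), then the Calvin cycle (1.58), electron transport and ATP synthase (1.50), photosystem II (0.79), photosystem I (0.54) and light harvesting (0.18), an order that was the same in all 10 alternatives tried. In Swarna the Calvin cycle (−0.26) and electron transport and ATP synthase (−0.72) were the highest, Rubisco (−1.37) and photosystem II (−1.63) followed, and light harvesting (−1.74) and photosystem I (−1.76) were the lowest. The Swarna order was not the same throughout. Rubisco stood above electron transport and ATP synthase with combined rows (−0.53 against −0.94) and under quantile normalization (−1.47 against −1.53), and light harvesting was the lowest at a minimum of 10 FPKM (−2.05). The groups hold between 3 and 12 loci each, and their differences were not tested.

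Between the cultivars before heading, 32 of the 41 loci were at least 2-fold higher in Pokkali, where 9.92% of all loci were, and 0 were at least 2-fold higher in Swarna (7.49%). The median log2 ratio of Swarna to Pokkali in EP was −1.40, beside −0.06 over all loci. Without LOC_Os01g41710, at a minimum of 10 FPKM, 31 of 40 loci were. The other 11 antenna loci and the 4 photosystem II loci over the minimum were among them, and 2 of the 6 loci of electron transport and ATP synthase were. After heading, 39 loci were at least 2-fold higher in Pokkali (20.3% of all loci) and 0 in Swarna (20.4%), and the median was −3.45, beside 0.02 over all loci. The loci within 2-fold in NP were LOC_Os05g48630 and LOC_Os06g04270. The NP medians of the role groups lay between −3.35 and −3.84, apart from Rubisco at −5.44. The distance between the cultivars in NP was thus of similar size in light-reaction and Calvin cycle loci, though the stage ratios within each cultivar were not.

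The 3 listed loci without a row of their own were seen only together with a neighbour. The row of LOC_Os11g47970 and LOC_Os11g47980, the former in the Rubisco group, had 31.8 FPKM before and 39.7 after heading in Swarna, against 73.1 and 344 in Pokkali. The row of LOC_Os09g30330 and LOC_Os09g30340, the latter in the photosystem I group, had 13.8, 1.45, 33.5 and 46.3 FPKM. The row of LOC_Os07g32880 and LOC_Os07g32890, the former in the electron transport and ATP synthase group, had 15.2, 6.76, 25.3 and 42.3 FPKM. A second row of LOC_Os11g47970, shared with LOC_Os11g47960, was below 1 FPKM in every group, with 0.347, 0.178, 0.188 and 0.340 FPKM, and was higher in Swarna in EP. The 3 more abundant rows were higher in Pokkali at both stages, as 31.6% of all loci compared were. How much of each value belongs to the listed locus cannot be told apart from its neighbour. Among members with a row of their own, 20 had more than 1 row, and the 27 rows not used reached at most 12.0 FPKM.

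Genes around the pathway were read from further lists, again placed by hand and not checked against an annotation. Of 12 chlorophyll synthesis loci, 9 were higher in EP by 2-fold or more in Swarna and 2 in NP, beside 25.4% and 26.6% of all loci, with a median of −2.21. In Pokkali, 2 were higher in EP by 2-fold or more and 0 in NP, beside 14.8% and 15.9% of all loci, with a median of −0.49. The 2 were near the background share, and 11 of the 12 Pokkali ratios were below 0 where most photosynthesis loci were above it. Over all 19126 loci, 8829 Pokkali ratios were below 0. LOC_Os04g58200 of this list had 65.6 FPKM before and 9.47 after heading in Swarna, against 372 and 60.7 in Pokkali. LOC_Os10g35840 was higher in Swarna NP (65.5 FPKM) than in Pokkali NP (45.1 FPKM), the only locus of the 12 for which this held.

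Photorespiration, which salvages the product of Rubisco's reaction with oxygen, had 7 of 8 listed loci with a row. In Swarna 4 of them were higher in EP by 2-fold or more and 2 in NP, and in Pokkali 1 was higher in EP by 2-fold or more and 4 in NP. The shares of all loci were 25.4% and 26.6% in Swarna and 14.8% and 15.9% in Pokkali, so the 2 in Swarna NP and the 1 in Pokkali EP were near the background. LOC_Os10g37180 had 9.46 FPKM before and 0.563 after heading in Swarna, against 32.5 and 94.5 in Pokkali. LOC_Os03g57220 had 2.35, 3.90, 4.04 and 89.5 FPKM, and LOC_Os08g39300 had 3.73, 21.7, 5.55 and 91.9 FPKM. All 7 were higher in Pokkali at both stages, as 31.6% of all loci were.

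Of 6 further loci of Rubisco and the Calvin cycle, 5 had a row. At least 2-fold higher in NP were 3 of the 5 in each cultivar, beside 26.6% of all loci in Swarna and 15.9% in Pokkali, and the medians were 1.31 in Swarna and 1.24 in Pokkali. LOC_Os09g36450, with 48.0, 55.3, 92.0 and 130 FPKM, was within 2-fold in both cultivars. LOC_Os03g19380, with 33.9, 10.5, 52.2 and 58.1 FPKM, was higher in EP by 2-fold or more in Swarna and nearly level in Pokkali. LOC_Os01g19740 had 6.66 FPKM before and 183 after heading in Swarna, against 8.10 and 252 in Pokkali. Export of triose phosphate, the product of the Calvin cycle, was represented by a pair of transporter genes. TPT1 (LOC_Os01g13770) had 43.1 FPKM before and 12.0 after heading in Swarna, against 108 and 136 in Pokkali, and TPT2 (LOC_Os05g15160) had 2.27, 0.159, 2.21 and 5.09 FPKM. LOC_Os06g24070, a G2-like transcription factor gene, had 3.13, 0.591, 7.67 and 12.2 FPKM. These 3 were lowest in Swarna NP and highest in Pokkali NP, as most photosynthesis loci were. LOC_Os01g13740, listed with it as a regulator, had 11.0, 21.6, 16.4 and 21.2 FPKM and did not show that order.

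**Figure D4:**
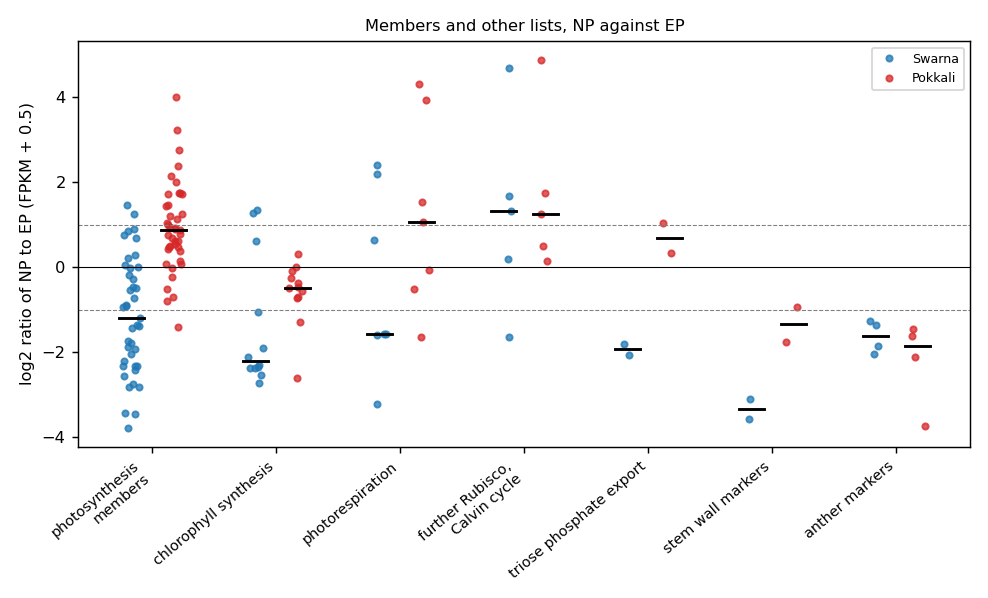
Log2 ratio of NP to EP in Swarna (blue) and Pokkali (red), on FPKM plus 0.5, for the 41 photosynthesis loci and for loci over the minimum of 6 other lists, with each point a locus and each black bar a median. Swarna and Pokkali medians lie on opposite sides of 0 for the photosynthesis loci, photorespiration and triose phosphate export, and on the same side for chlorophyll synthesis, the further Rubisco and Calvin cycle loci and both marker lists. Photorespiration ratios split nearly evenly, with 3 above and 4 below 0 in Swarna and 4 above and 3 below in Pokkali. Triose phosphate export holds only 2 loci. The marker loci come from genes that the paper reports as higher in EP in these data, so their side was set by that choice. A pair of regulator loci is not drawn.

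Markers of other tissue were read from genes that the paper reports as higher in EP in these data. Their lower values in NP were therefore set by that choice. The paper's anther list also holds genes higher in NP, which were not used as markers. The secondary wall cellulose synthase genes CESA4 and CESA7, markers of lignifying stem tissue, were present in every group. CESA4 had 54.9 FPKM before and 5.94 after heading in Swarna, against 264 and 138 in Pokkali, and CESA7 had 68.1, 5.25, 170 and 49.8 FPKM. They share with the photosynthesis loci the lower level in Swarna at both stages, as 31.6% of all loci do, and the low value in Swarna NP. The higher value in Pokkali NP is not shared, but genes chosen as higher in EP could not show it. The 5 anther markers summed to 34.5 FPKM before and 10.8 after heading in Swarna, against 121 and 28.0 in Pokkali, and the 4 that passed the minimum were higher in EP by 2-fold or more in both cultivars. The anther marker LOC_Os03g15710 was listed at 0 in Pokkali NP and was under the minimum in every group. The part of these tissues in the differences above was not tested.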

How the data were processed

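Total RNA of 12 peduncle libraries, 3 per group, was prepared with the TruSeq Stranded Total RNA kit. According to the paper's methods and the submitters' notes, the authors cleaned reads by the NGSQC Toolkit, used HISAT2 version 2.1.0 for alignment to the Rice Genome Annotation Project genome (version 7) and StringTie version 1.3.3b for assembly, joined the assemblies by Cuffmerge and compared groups by Cuffdiff. The deposited values are FPKM, made by the authors as 1 value per assembled gene and group. The depth per library was not used here, and a low FPKM has less precision than a high value.

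Of 73781 rows, those naming a single locus were used. Where a locus had several, the row of highest mean FPKM was taken. Loci with at least 1 FPKM in at least 1 group were compared, as log2 ratios of FPKM plus 0.5, and 2-fold was counted. The plan was limma if the table held values per library, which it did not, so no test was run. In each role group, 4 values were given at least for the most abundant member and those of extreme ratio, and for members of opposite direction or low level. Up to 4 members of each other list were named. The members and lists were chosen with earlier results of these data known. Alternatives were other constants (0.1 and 1), scalings and filters, summed rows and, chosen after seeing the data, combined rows and sums without the 10 most abundant loci. The ratio calculation was checked on the deposited values after known folds were put on some loci, without added noise. That checks the calculation only. Coordinates were written from 1, and no sequence was printed. Python 3.11.15, numpy 2.4.6, pandas 2.3.3, scipy 1.17.1 and matplotlib 3.10.9 were used.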

Additional observations from a re-analysis of the deposited data

Results flagged for a closer look

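In 4 loci the stage ratio went at least 2-fold one way in Swarna and the other way in Pokkali. The difference of the log2 ratios, Swarna minus Pokkali, was −6.21 for LOC_Os12g17600, −4.14 for LOC_Os12g19470, −3.62 for LOC_Os08g33820 and −2.57 for LOC_Os06g21590. With 1 combined value per group, none of these differences was tested.

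Rows naming a listed locus together with a neighbour lie outside the comparisons and held signal. Their highest group values were 344 FPKM for LOC_Os11g47970 with LOC_Os11g47980, 46.3 FPKM for LOC_Os09g30330 with LOC_Os09g30340 and 42.3 FPKM for LOC_Os07g32880 with LOC_Os07g32890, each in Pokkali NP. The highest of them was the row of LOC_Os01g41630 with LOC_Os01g41710, on chromosome 1 from 23323570 to 23608583, with 2516 FPKM before and 2812 after heading in Swarna, against 3087 and 4112 in Pokkali. It exceeds every row of a member alone, while the row naming LOC_Os01g41710 alone peaks at 1.23 FPKM. In each cultivar and stage comparison it stayed within 2-fold. Which of the loci in this long region the reads came from was not tested.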

How the results depend on the processing

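Of 150 recomputed medians and counts, 142 stayed close to the values reported and 8 moved, with no direction reversed. The Swarna median became −2.07 with columns divided by their sums and −1.97 with sums that leave out the 10 most abundant loci, and the median difference of the ratios became −2.60 in both. Members at least 2-fold higher in Swarna NP numbered 0 under either sum and 1 under quantile normalization, in place of 2, and those higher in Pokkali EP numbered 2 with columns divided by their sums, in place of 1. These alternatives rescale all loci alike or by rank, and the sum of Swarna NP is the highest. Ratios of single members moved in 40 of 82 cases under either sum, in 24 under quantile normalization, in 2 with combined rows and in 1 with a constant of 0.1, and no called ratio changed sign. Positive Swarna ratios numbered 9 as deposited, 3 with columns divided by their sums and 4 under quantile normalization. Members lowest in Swarna NP and highest in Pokkali NP numbered between 26 and 29 in all alternatives.

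No paired analysis was possible because the table holds 1 combined value per group. For the same reason leaving out each replicate in turn was not run. Without counts or replicates, precision is unknown, and it is lowest for low FPKM values.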
